A study of Mus musculus with 19 samples.

Results

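The keratin gene family was examined in RNA sequencing libraries of the mouse ocular surface. Every feature whose symbol began with Krt followed by a digit was taken, which gave 55 genes of the 24552 features used in each table, 28 of them type I and 27 type II. The keratin-associated proteins and other genes with similar symbols (57 features) were left out. All mice were C57BL/6, by the study's methods female C57BL/6J, and no other treatment is named in the labels. For one of its cohorts the methods also describe a CR chow enriched in vitamins and micronutrients, and the labels do not say which cohort was sequenced. One group ate ad libitum (AL) and the other was calorie restricted (CR), which by the study's methods meant a stepwise reduced ration given daily, shortly before lights went off. The cornea samples, scraped corneal epithelium by those methods, comprised 5 AL and 5 CR libraries. The excised conjunctiva gave 4 AL and 5 CR libraries. Library names below give the diet and the number in the title. The titles also carry 6M and 50W, which the labels do not explain. The methods took several tissues from each mouse, and 8 titles (4 AL and 4 CR) occur in both tissues. The labels do not state whether a library is 1 mouse or a pool, so p-values measure the spread between these samples. The series' design text calls the mice young and its title calls them adult. By the paper, the restriction was begun at the start of middle age and lasted 4 months, with AL mice of the same age.

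Keratins are the intermediate filament proteins of epithelial cells. A type I (acidic) and a type II (basic) keratin pair to build each filament, and the pair in use marks the kind of epithelium and the depth of the cell layer. In the corneal epithelium the characteristic pair is K12 with K5. Basal cells of stratified epithelia use K5 with K14 or K15, the upper layers of wet mucosae such as the conjunctiva use K4 with K13, and single-layered or glandular cells use K8 with K18, together with K7 and K19.

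Libraries held 10354125 to 14681223 counted reads for cornea and 10726717 to 14433441 for conjunctiva. A count of 0 allowed up to 3 reads, which was 2.27 to 3.37 normalized counts, and intervals and floors cover counting error only. Features at 0 were 38.7% to 47.6% of all in cornea libraries, highest in CR 7, with CR 2, CR 3 and AL 4 at 45.2% to 46.1%. CR 7 also had the highest share of *Rn45s* reads (15.1%, the other cornea libraries 8.98% to 13.3%), and the changes of the named cornea keratins are given below with and without it. Markers of lacrimal gland (14 of 15 listed genes were in the tables, *Lcn3* at 0 throughout the cornea) summed to 42239 normalized counts in cornea AL 1, 118 to 1177 in the other AL libraries and 56.7 to 402 in CR libraries. Of the 10 tested, 4 fell under CR (0.472% of all genes fell), 2 without AL 1, and 0 without AL 2, AL 3, AL 5 or CR 2. Only 2 to 4 of the 14 were above 0 in each CR library, so most of those tested reached the level for testing through AL libraries. A fall was thus largely set by that choice and cannot be weighed against the share of all genes. The same 10 were tested without AL 1. In the conjunctiva, markers of stromal fibroblasts (10 of 10) summed to 45291 to 66860 in AL and 30333 to 59196 in CR libraries, and markers of leukocytes (8 of 8, *Cd207* at 0 in CR) to 6263 to 9233 and 4359 to 6059. Of the stromal markers 2 of 10 tested fell (0.136% of all genes fell there), and of the leukocyte markers 1 of 6. The part of these cells in the keratin values was not tested. In bulk tissue, fewer cells of a type and less RNA per cell cannot be told apart.

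The genes sit in one cluster per type, type I on chromosome 11 and type II on chromosome 15, with the type I gene *Krt18* placed beside its partner *Krt8* on chromosome 15. The 250 bases before the start of 4 keratin genes are printed to show the stretch next to the start of a gene that separated the tissues most (*Krt12*), of a mucosal gene (*Krt13*) and of the genes with the smallest p-values under CR in the conjunctiva (*Krt18* and *Krt23*). They were taken from RefSeq on GRCm38.p6, 5′ to 3′ on the strand of the gene. The windows are chr11:99422260-99422509 (minus strand) for *Krt12*, chr11:100121567-100121816 (minus strand) for *Krt13*, chr15:102027966-102028215 (plus strand) for *Krt18* and chr11:99493121-99493370 (minus strand) for *Krt23*. The *Krt12* window lies inside the span given for that gene (chr11:99415664-99422593), so the start it precedes is not the outermost one. Capitals mark matches on either strand. The motifs searched were the letters TATAAA for the box of that name and GGGNGTGG for KLF factors. The others were GCCNNNGGC for AP-2, then CACGTG for an E-box, and lastly TGANTCA for AP-1. No marked match overlaps another.
*Krt12*: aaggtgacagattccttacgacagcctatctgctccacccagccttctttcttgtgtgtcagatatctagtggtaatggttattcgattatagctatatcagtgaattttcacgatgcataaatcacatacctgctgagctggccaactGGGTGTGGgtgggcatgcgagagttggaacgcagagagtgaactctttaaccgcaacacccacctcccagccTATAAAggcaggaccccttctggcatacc
*Krt13*: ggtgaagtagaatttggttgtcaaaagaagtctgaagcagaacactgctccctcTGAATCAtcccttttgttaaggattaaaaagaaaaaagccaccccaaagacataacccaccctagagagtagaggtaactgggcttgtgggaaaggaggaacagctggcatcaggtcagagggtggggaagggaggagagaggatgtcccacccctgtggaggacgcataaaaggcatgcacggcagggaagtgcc
*Krt18*: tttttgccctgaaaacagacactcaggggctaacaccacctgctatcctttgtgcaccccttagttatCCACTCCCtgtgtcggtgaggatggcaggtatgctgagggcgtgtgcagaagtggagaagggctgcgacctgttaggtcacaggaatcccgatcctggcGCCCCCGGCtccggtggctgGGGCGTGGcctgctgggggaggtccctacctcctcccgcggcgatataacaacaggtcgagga
*Krt23*: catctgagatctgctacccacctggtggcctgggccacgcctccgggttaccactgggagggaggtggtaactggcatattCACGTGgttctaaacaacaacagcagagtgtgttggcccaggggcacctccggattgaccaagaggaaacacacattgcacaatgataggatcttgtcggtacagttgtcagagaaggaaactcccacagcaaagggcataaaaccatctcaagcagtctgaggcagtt

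*Krt12* held TATAAA 29 bases before the start and a GGGNGTGG match at base 101 before it. *Krt13* held 1 TGANTCA match at 196 bases, *Krt23* 1 CACGTG match at 169 bases and *Krt18* 1 GCCNNNGGC match at 83 bases with GGGNGTGG matches at 182 and 63 bases. RefSeq gave such a stretch for 36 of the 55 keratins, and *Krt4*, *Krt15*, *Krt6a*, *Krt6b* and *Krt19* were not among them. TATAAA was found in 17 of these 36 (47.2%) and in 13.0% of all 27025 promoter windows of the same length. Most of the 17 were hair and nail keratins, which had few reads here. Among the more abundant keratins with a stretch, *Krt12* held it. *Krt5*, *Krt7*, *Krt8*, *Krt13*, *Krt14*, *Krt18*, *Krt23* and *Krt78* did not. GGGNGTGG was in 8 of 36 (22.2%, all windows 15.8%), GCCNNNGGC in 5 (13.9%, all windows 13.6%), CACGTG in 3 (8.33%, all windows 6.05%) and TGANTCA in 1 (2.78%, all windows 6.87%). These are descriptions of letters and say nothing of binding.

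Some keratins share sequence, which limits how reads can be divided among them. Of all stretches of 75 bases in the transcript of *Krt6a*, 56.0% also occurred in a transcript of another gene, most often *Krt6b*, and for *Krt6b* the share was 39.6%. *Krt12* shared 35.6% of its stretches with the overlapping gene *A830036E02Rik*, and *Krt8* 23.5%, mostly with a pseudogene. *Krt16* shared 28.9%, *Krt5* 7.77% and *Krt14* 5.91%. *Krt4*, *Krt13*, *Krt15*, *Krt18*, *Krt19* and *Krt23* shared none. Values of *Krt6a* and *Krt6b* are therefore uncertain as single genes. *Krt83* and *Krt87* carry the same gene identifier in the tables and are counted as listed.

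At least 1 read was counted for 49 keratins in the cornea and 47 in the conjunctiva, and 26 in each tissue had a mean of at least 10 normalized counts and were tested. The other 29 in each tissue, most of them hair and nail keratins, had too few reads: 6 (cornea) and 8 (conjunctiva) had none in any library. A mean above 1000 was reached by 9 cornea and 12 conjunctiva keratins. Together the keratins took 6.65% ± 0.09 of counted reads in cornea AL libraries and 6.26% ± 0.55 in CR libraries (SD, n = 5 each), where CR 4 with 7.23% lay above all others and the other CR libraries, at 5.90% to 6.15%, lay below all AL libraries. In the conjunctiva the share was 4.18% ± 0.45 under AL (n = 4) and 4.02% ± 0.39 under CR (n = 5), with overlap. Type I keratins held 58.2% to 64.4% of keratin reads in cornea libraries and 65.7% to 72.9% in those of the conjunctiva.

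The tissues had different leading keratins. Because the authors scaled each tissue in its own table, levels across tissues are given as RPM, a gene's reads per 1000000 counted reads of the library, and are described without a test. Of 29 keratins with a mean of at least 1 RPM in either tissue, 5 were higher in every cornea library than in any conjunctiva library (*Krt12*, *Krt5*, *Krt6a*, *Krt6b* and *Krt78*) and 4 were higher in every conjunctiva library (*Krt15*, *Krt7*, *Krt8* and *Krt18*). Among all 14026 features at that level, 4.28% were higher in every cornea library and 18.3% in every conjunctiva library. The corneal pair *Krt12* and *Krt5* held a median of 56.1% of cornea keratin reads and 10.5% of those of the conjunctiva. The basal keratins *Krt5*, *Krt14* and *Krt15*, which share *Krt5* with that pair, held 33.9% and 71.7%, the mucosal pair *Krt4* and *Krt13* 4.08% and 6.51%, the simple epithelial keratins 0.432% and 2.85%, and the stress and wound keratins 22.2% and 16.5%. Hair and nail keratins (27 genes) took 0.0507% and 0.0497%. These are shares of different totals, since keratins took more of all reads in the cornea. In RPM, the mean of the mucosal *Krt13* was higher in the cornea (2415) than in the conjunctiva (1830). That of *Krt4* was lower in the cornea (432 and 1292), and both genes overlapped between tissues.

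**Figure D1:**
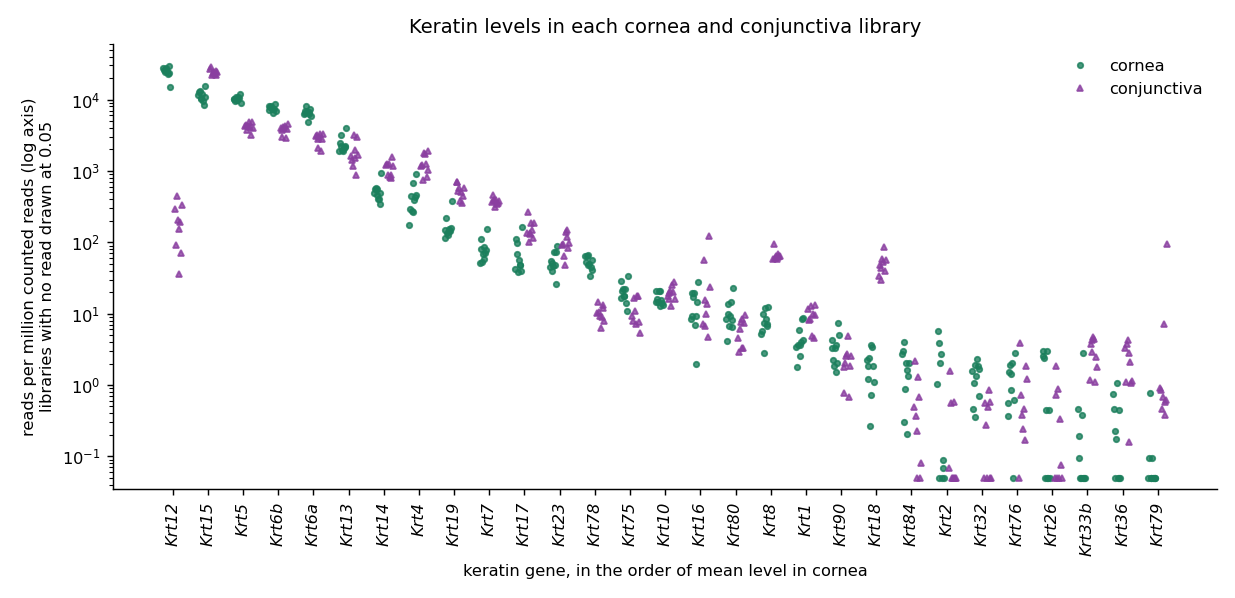
Level of each keratin with a mean of at least 1 RPM in either tissue, as RPM on a log axis, with 1 point for each of the 10 cornea and 9 conjunctiva libraries and genes ordered by their mean in the cornea. *Krt12* separates the tissues most, *Krt18* and *Krt8* lie higher in the conjunctiva, and *Krt79* and *Krt16* have single conjunctiva libraries far above the rest.

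The main comparison asked whether CR changed any keratin within a tissue. None passed the test in the cornea or in the conjunctiva, with 0 of 26 called in each (limma, a fold over 1.5 and an adjusted p under 0.05 by Benjamini-Hochberg), where 1.22% of all 12278 genes tested passed for the cornea and 0.359% of 13929 for the conjunctiva. The count was also 0 in both tissues with limma voom on recovered reads. At an unadjusted p under 0.05, 2 keratins were left in the cornea (*Krt4* higher and *Krt78* lower under CR, where 18.1% of all genes had such a p, 8.52% higher and 9.55% lower) and 3 in the conjunctiva (*Krt23* and *Krt18* higher, *Krt19* lower, where 9.40% of all genes had one, 4.53% higher and 4.87% lower). In neither tissue did the AL and CR libraries of any tested keratin fail to overlap (0 of 26, against 3.97% and 3.87% of all genes). The median log2 change, on the log2(normalized count + 1) scale used throughout, was −0.08 over the 26 cornea keratins and −0.03 over all genes, and 0.07 and −0.02 in the conjunctiva.

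**Figure D2:**
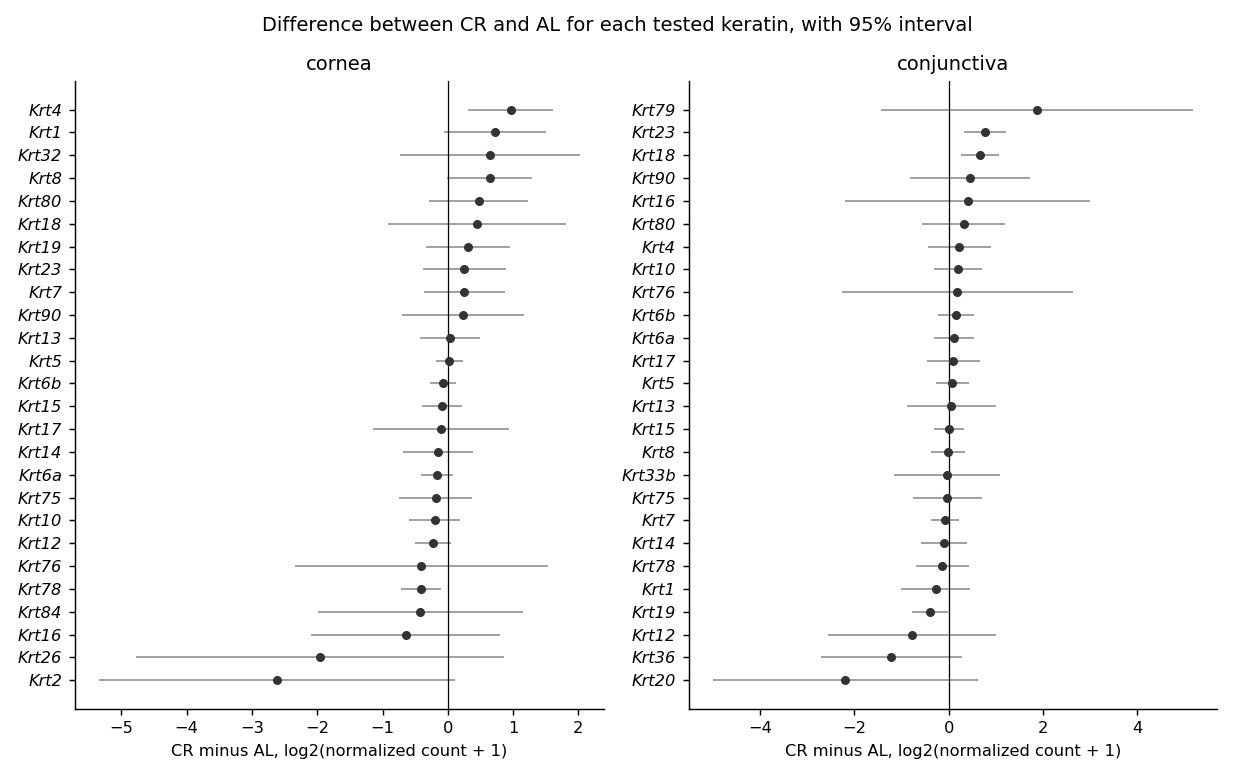
Difference between CR and AL for each of the 26 tested keratins of the cornea (left) and of the conjunctiva (right), on the log2(normalized count + 1) scale, with the 95% interval from limma. Abundant keratins such as *Krt5* and *Krt15* have short intervals around 0, while keratins with few reads such as *Krt2* and *Krt20* have intervals several units wide.

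*Krt12* (chr11:99415664-99422593), the type I keratin of the corneal epithelium, was the most abundant keratin of the cornea also when divided by exon length (13408 ± 2176 RPM per kilobase, SD, n = 10). If reads came only from transcript ends, as one of the kits named would give, division by length would not apply, and *Krt12* also led without it. Cornea libraries held 330997, 303991, 289780.0, 285544 and 321926 normalized counts in AL 1 to 5 and 286034, 264894, 262106, 340965 and 179846 in CR 1, 2, 3, 4 and 7. CR 7 lay lowest and CR 4 highest, and the diets overlapped. The log2 change was −0.23 ± 0.13 (SE) (limma adjusted p = 0.375), with a 95% interval of −0.51 to 0.05. Without CR 7 it was −0.09 ± 0.10 (SE, adjusted p = 0.665). In the conjunctiva, *Krt12* had 3362, 1085, 5139 and 2439 normalized counts in AL 1, 3, 4 and 5 and 436, 1928, 2201, 935 and 4565 in CR 1 to 5. AL 4 and CR 5 were high and CR 1 was low, an 11.8-fold range over the tissue. The log2 change there was −0.78 ± 0.76 (SE) (limma adjusted p = 0.812). In RPM the cornea mean was 123 times the conjunctiva mean.

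*Krt5* (chr15:101707069-101712905), the type II partner of K12 in the cornea and of K14 in basal cells, varied little. Cornea libraries held 119469, 118839, 108388, 124932 and 115385 normalized counts under AL and 111436, 124302, 116819, 138815 and 107335 under CR, in the same order of libraries. The groups overlapped, and the log2 change was 0.02 ± 0.10 (SE) (95% interval −0.18 to 0.23, limma adjusted p = 0.921). Conjunctiva libraries held 48831, 53509.9, 44119.8 and 51048 under AL and 58278, 52129, 36251, 64144 and 53977 under CR, with CR 3 lowest and CR 4 highest. The log2 change was 0.08 ± 0.17 (SE) (95% interval −0.27 to 0.43). Its coefficient of variation was 7.84% over the 10 cornea libraries, against 16.0% for *Krt12*.

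*Krt15* (chr11:100131759-100135949), a type I keratin of basal cells, was the most abundant keratin of the conjunctiva and the second of the cornea, at 13745 ± 1227 and 6493 ± 1124 RPM per kilobase (SD, n = 9 and 10). Conjunctiva libraries held 311087, 340746, 257072 and 280891 normalized counts under AL and 290234, 280269, 255554, 337651 and 326319 under CR. They spanned 1.33-fold with overlapping groups, and the log2 change was 0.00 ± 0.15 (SE) (95% interval −0.32 to 0.33, limma adjusted p = 0.996). Cornea libraries held 136447, 151035, 149130.0, 118649 and 122323 under AL and 135537, 111214, 94681, 125038 and 184066 under CR. CR 7 was highest and CR 3 lowest, and the log2 change was −0.09 ± 0.14 (SE) (95% interval −0.39 to 0.22). *Krt15* had 0.810 to 1.71 reads for each *Krt5* read in cornea libraries and 4.98 to 7.05 in conjunctiva libraries.

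*Krt14* (chr11:100203162-100207510), the usual type I partner of K5 in basal cells, was far below *Krt15* in both tissues (296 and 618 RPM per kilobase in cornea and conjunctiva). Cornea libraries held 5752, 6463, 6581, 6469 and 5392 normalized counts under AL and 4597, 4634, 3779.8, 5623 and 11069 under CR. CR 7 held the highest value of the tissue, while CR 1, 2 and 3 lay below every AL library. The log2 change was −0.15 ± 0.24 (SE) (limma adjusted p = 0.775), and without CR 7 it was −0.41 ± 0.11 (SE, adjusted p = 0.0773), which did not pass either. In the conjunctiva the values were 14053, 15137, 10364 and 14983 under AL and 9757, 10798, 9071, 20609 and 15928 under CR. The groups overlapped, with CR 4 highest, and the log2 change was −0.10 ± 0.23 (SE) (95% interval −0.59 to 0.39).

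*Krt4* (chr15:101918535-101924735), the type II keratin of the upper layers of wet mucosae, had the smallest p of the cornea keratins. Cornea libraries held 2048, 3399, 5103, 3198 and 3051 normalized counts under AL and 7764, 4582, 4868, 5203 and 10724 under CR. The CR libraries lay above every AL library except AL 3, which was higher than CR 2 and CR 3. The means were 3359.5 ± 1105 and 6628 ± 2617 (SD, n = 5 each), a log2 change of 0.96 ± 0.29 (SE) with a 95% interval of 0.32 to 1.60. It did not pass (limma unadjusted p = 0.00780, adjusted p = 0.137). Without CR 7 the change was 0.77 ± 0.25 (SE, adjusted p = 0.179). In the conjunctiva, values were 13488, 14714, 8790.4 and 20961 under AL and 21011, 15504, 9558, 25407 and 13919 under CR, overlapping, with a log2 change of 0.22 ± 0.30 (SE) (95% interval −0.44 to 0.89).

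*Krt13* (chr11:100117327-100121566), is its type I partner. Cornea libraries held 22185, 28750.0, 24931, 37207 and 23047 normalized counts under AL and 21686, 24259, 24619.7, 25017 and 48151 under CR. CR 7 and AL 4 were high, the groups overlapped, and the log2 change was 0.04 ± 0.21 (SE) (95% interval −0.42 to 0.50, limma adjusted p = 0.947). Without CR 7 it was −0.16 ± 0.13 (SE), in the other direction. Conjunctiva libraries held 18514, 17379, 13791 and 38063 under AL and 23355, 18968, 10269, 40522 and 22786 under CR. AL 5 and CR 4 were high and CR 3 was low, and the log2 change was 0.06 ± 0.41 (SE). Libraries of the cornea held 2.79 to 11.6 reads of *Krt13* for each read of *Krt4*, with 4.89 to 11.6 under AL and 2.79 to 5.29 under CR, and those of the conjunctiva 1.07 to 1.82.

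Markers of goblet cells, the mucin-secreting cells of the conjunctiva (8 of 8 listed, *Tff2* at 0 throughout the cornea and *Spdef* at 0 in its CR libraries), summed to 217 to 398 normalized counts in cornea AL libraries and 137 to 367 in CR libraries. CR 7, with the highest *Krt4* and *Krt13* of the cornea, had 276. It had the highest sums of the cornea for markers of stromal fibroblasts (2397 normalized counts, others 516 to 2069), leukocytes (529, others 154 to 499) and meibomian gland (245, others 137 to 175). Of the 10 meibomian markers 4 were above 0 in CR 7 and 2 to 6 in the other cornea libraries. *Awat2*, an enzyme of that gland, was at 0 in every cornea library but AL 1 (1 read). In the conjunctiva the goblet cell sum was 6314 to 8912 under AL and 4527 to 11562 under CR. The part of these cells in the cornea keratin values was not tested.

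Among the stress and wound keratins, *Krt6b* (chr15:101676023-101680293) and *Krt6a* (chr15:101689928-101694305), type II keratins induced in injured epithelia, stood next after *Krt5* in both tissues by length. *Krt6b* had 85093, 93860.1, 87905, 92838 and 86669 normalized counts in cornea AL and 74144, 85564, 82336, 100190.0 and 83618 in CR libraries. *Krt6a* had 73387, 81264, 73166, 94905 and 76327 and 54439, 77575, 70325, 85821 and 70027. CR 1 was the lowest library for both and the diets overlapped, with log2 changes of −0.07 ± 0.10 (SE) and −0.16 ± 0.12 (SE) (limma adjusted p = 0.723 and 0.477). In the conjunctiva *Krt6b* had 45955, 45618, 34494 and 49232 under AL and 47521, 53974, 33064, 50822 and 60574 under CR. *Krt6a* had 36045, 38213, 24693 and 33740.5 and 35589, 41177, 22182, 37931 and 45188. CR 3 was lowest and CR 5 highest for both, and the log2 changes were 0.15 ± 0.18 (SE) and 0.11 ± 0.20 (SE), neither called. The type I stress keratins *Krt16* and *Krt17*, named here after their values were seen, were less abundant and each had 1 library far above the rest of its group: *Krt16* in conjunctiva CR 4 (1622 normalized counts, the other CR libraries 55.0 to 322) and *Krt17* in cornea CR 7 (1948, the others 459.8 to 647).

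Simple epithelial keratins were higher in the conjunctiva. The mean RPM of *Krt18* in the conjunctiva was 26.7 times that in the cornea, that of *Krt8* 8.49 times, *Krt7* 4.63 times and *Krt19* 3.11 times, and *Krt19* alone of these overlapped between tissues. *Krt18* (chr15:102028216-102032026), the type I keratin of simple epithelia, had 395, 572, 508 and 357 normalized counts in conjunctiva AL libraries and 701, 655, 995, 534 and 774 in CR libraries. CR 4 lay below AL 3 and the other CR libraries lay above every AL library. The means were 458 ± 99.6 (SD, n = 4) and 732 ± 171 (SD, n = 5), a log2 change of 0.67 ± 0.19 (SE) with a 95% interval of 0.27 to 1.07. It did not pass (limma unadjusted p = 0.00287, adjusted p = 0.191). With the share of features at 0 as a covariate it was 0.85 ± 0.18 (SE, adjusted p = 0.0447) and was called.

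*Krt8* (chr15:101996711-102004342), the type II partner of K18, was much the same under both diets in the conjunctiva. Its libraries there held 670.5, 1140.1, 713 and 769 normalized counts under AL and 707, 844, 709, 857 and 883 under CR. The groups overlapped with AL 3 highest, and the log2 change was −0.02 ± 0.17 (SE) (95% interval −0.37 to 0.34). In the cornea, where both partners were low, *Krt8* had 61.6, 67.7, 111, 32.7 and 84.5 under AL and 137, 97.1, 79.6, 77.7 and 150.5 under CR (log2 change 0.64 ± 0.31 (SE), limma adjusted p = 0.281). *Krt18* had 26.4, 14.2, 20.7, 27.4 and 3.09 and 41.6, 8.48, 37.9, 21.5 and 13.0 there, near the floor in several libraries. Both overlapped between the diets.

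*Krt23* (chr11:99477973-99493120), a type I keratin, had the smallest p of the conjunctiva keratins. Its libraries held 1057, 1126, 761 and 564 normalized counts under AL and 1657, 1883, 1348, 1108 and 1328 under CR. CR 4 lay just below AL 3, and the other CR libraries lay above every AL library. The means were 877 ± 262 (SD, n = 4) and 1464 ± 305 (SD, n = 5), a log2 change of 0.77 ± 0.21 (SE) with a 95% interval of 0.33 to 1.21, which did not pass (limma unadjusted p = 0.00204, adjusted p = 0.161). In the cornea it had 527, 629, 582, 462 and 546 under AL and 824, 547, 292, 835 and 1062 under CR. CR 7 was highest and CR 3 lowest, with a log2 change of 0.25 ± 0.29 (SE) (95% interval −0.39 to 0.89), which was 0.08 ± 0.28 (SE) without CR 7.

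*Krt19*, a type I keratin of simple and ductal epithelia that is also expressed in the conjunctiva, had 8147, 8467, 6189 and 6937 normalized counts in conjunctiva AL libraries and 4579, 6299, 4135, 5923 and 7918 in CR libraries. CR 1 and CR 3 were lowest, CR 2 and CR 5 lay within the AL range, and the log2 change of −0.39 ± 0.18 (SE) did not pass (limma unadjusted p = 0.0472, adjusted p = 0.521). In the cornea the values were 1356, 1716, 2436, 1564 and 1453 under AL and 1659, 1763, 1586, 1802 and 4489.6 under CR. CR 7 stood far above the other CR libraries, and the log2 change went from 0.31 ± 0.29 (SE) to 0.03 without it. *Krt7*, a type II keratin of ductal and glandular epithelia, had 4242, 5568, 4593 and 4601 in conjunctiva AL and 3791, 4821, 3934, 4811 and 5183 in CR libraries, with overlap and a log2 change of −0.08 ± 0.14 (SE). Cornea libraries held 609, 948, 1270.4, 612 and 798 under AL and 986, 667, 778, 907 and 1844 under CR, again with CR 7 highest (log2 change 0.25 ± 0.28 (SE), and 0.02 ± 0.20 (SE) without it). *Krt20*, a type I keratin known from gut and bladder, had 30.5, 37.0, 2.15 and 4.54 under AL and 0, 0, 16.4, 6.15 and 0 under CR in the conjunctiva, mostly around the floor, and was under the level for testing in the cornea.

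*Krt78* (chr15:101946001-101996624), a type II keratin outside the groups above, had the next smallest p of the cornea after *Krt4*, with 768, 628, 733, 551 and 770.4 normalized counts under AL and 562, 390.1, 505, 657 and 495 under CR. CR 2 was lowest, CR 4 lay above AL 2 and AL 4, and the log2 change was −0.41 ± 0.15 (SE) with a 95% interval of −0.72 to −0.10 (limma unadjusted p = 0.0118, adjusted p = 0.161). In the conjunctiva it had 119.8, 173, 123 and 112 under AL and 77.0, 113, 153, 163 and 105 under CR, and its mean RPM in the cornea was 5.07 times that in the conjunctiva. *Krt1* (chr15:101845426-101850786), the type II keratin of the upper epidermis, had 40.7, 20.8, 41.5, 68.1 and 29.9 in cornea AL and 41.6, 46.2, 94.7, 49.0 and 103 in CR libraries, overlapping (log2 change 0.72 ± 0.37 (SE), limma adjusted p = 0.322). In the conjunctiva it had 137, 97.6, 97.9 and 153 and 58.4, 125, 53.1, 127 and 181 (log2 change −0.28 ± 0.35 (SE)).

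*Krt2*, another epidermal type II keratin, had 12.1, 66.6, 43.7, 0 and 23.7 normalized counts in cornea AL and 30.7, 0, 0.758, 1.02 and 0 in CR libraries. CR 1 lay among the AL libraries and the other CR libraries, like AL 4, were under the floor. The fitted change of −2.62 ± 1.30 (SE) did not pass (limma adjusted p = 0.299) and was 0.08 with the share of features at 0 as a covariate. *Krt36*, a type I hair keratin, had 38.6, 13.5, 44.1 and 50.9 in conjunctiva AL and 1.95, 35.2, 24.1, 14.3 and 15.5 in CR libraries, overlapping (log2 change −1.21 ± 0.71 (SE), adjusted p = 0.624 by limma). Of the 27 hair and nail keratins, 5 were tested in the cornea and 4 in the conjunctiva, with medians of the log2 change of −0.19 and −0.03. Markers of lid skin and hair (13 of 14 listed genes were in the tables, *Krtap5-4* and *Lce1c* at 0 throughout the cornea) summed to 48059 to 74393 normalized counts in cornea AL and 38503 to 58723 in CR libraries, nearly all of it *Asprv1*, and to 8085 to 13416 and 8928 to 15407 in the conjunctiva. None of the 5 and 7 tested was called by limma or had an unadjusted p under 0.05.

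*Krt79*, a type II keratin of hair canals and sebaceous ducts that was singled out after its values were seen, was at 5.38 to 10.5 normalized counts in conjunctiva AL libraries. Under CR it had 87.7, 4.76, 6.76, 8.20 and 1262 in CR 1 to 5, so that CR 5 and, less so, CR 1 stood apart. The sum of meibomian gland markers (10 of 10 listed, *Awat1* and *Mc5r* at 0 in AL libraries) was 9428 in CR 5 and 873 in CR 1, against 435 to 666 in the AL libraries and 464 to 542 in the other CR libraries. *Awat2*, a lipid-synthesis enzyme of that gland, had 68.2, 1.90, 2.90, 0 and 2051 in CR 1 to 5. The log2 change of *Krt79* was 1.88 ± 1.48 (SE) (limma adjusted p = 0.748). Whether that gland contributed to the values of *Krt79* or of any other keratin was not tested. Without CR 5, *Krt18* changed by 0.64 ± 0.20 (SE, adjusted p = 0.228) and *Krt23* by 0.80 ± 0.22 (SE, adjusted p = 0.186) on the log2 scale.

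**Figure D3:**
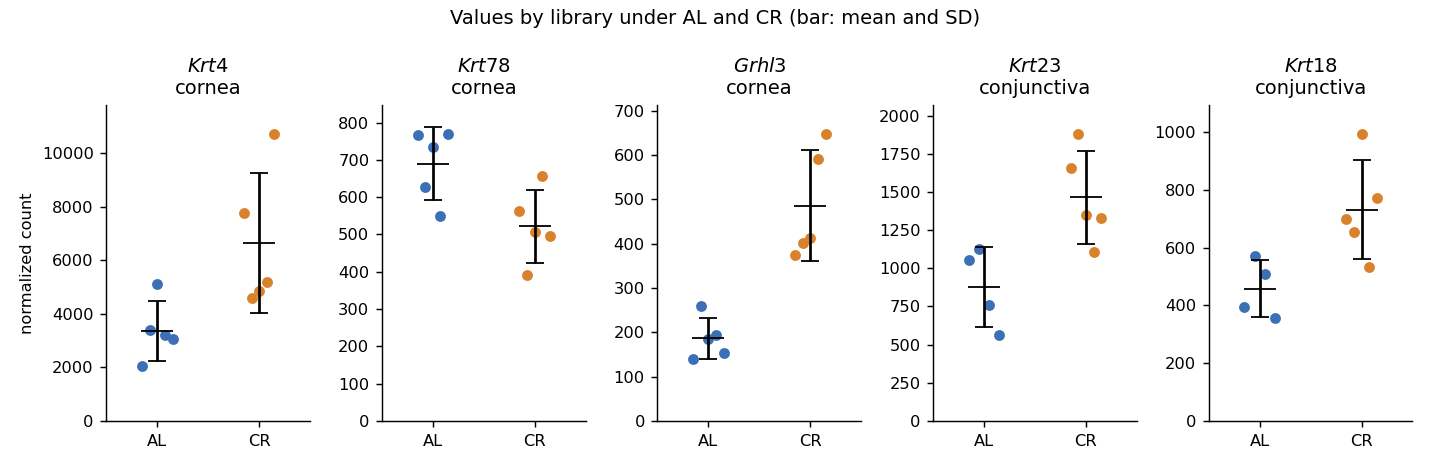
Normalized counts by library for *Krt4*, *Krt78* and *Grhl3* in the cornea and *Krt23* and *Krt18* in the conjunctiva, with 1 point per library and bars for the mean and SD (n = 5 AL and 5 CR in the cornea, 4 AL and 5 CR in the conjunctiva). The diets overlap for each of the 4 keratins, while the CR libraries of *Grhl3* all lie above its AL libraries.

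Cornea CR 7 differed from the rest in the make-up of its keratin reads. *Krt12* took 25.5% of them (95% Wilson interval 25.4% to 25.6%), where the other cornea libraries had 37.1% to 42.4%, and *Krt15* took 26.1% (26.0% to 26.2%), where the others had 14.3% to 19.8%. *Krt13* took 6.82% (6.76% to 6.87%), against 2.84% to 4.84%. *Krt5*, *Krt6a* and *Krt6b* took shares within the range of the other libraries. Its sums of stromal, leukocyte and meibomian markers and its share of *Rn45s* reads, given above, were also the highest of the cornea, and their part was not tested. Without CR 7 the log2 change was −0.22 for *Krt15* and 0.06 for *Krt5*. It was −0.16 for *Krt6a* and −0.07 for *Krt6b*. For *Krt78* it was −0.40, for *Krt8* 0.51 and for *Krt18* 0.61. For the epidermal *Krt1* it was 0.54 and for *Krt2* −2.28. None of the 16 named cornea keratins was called without CR 7. In the conjunctiva *Krt15* took 55.4% to 65.2% of keratin reads in every library.

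**Figure D4:**
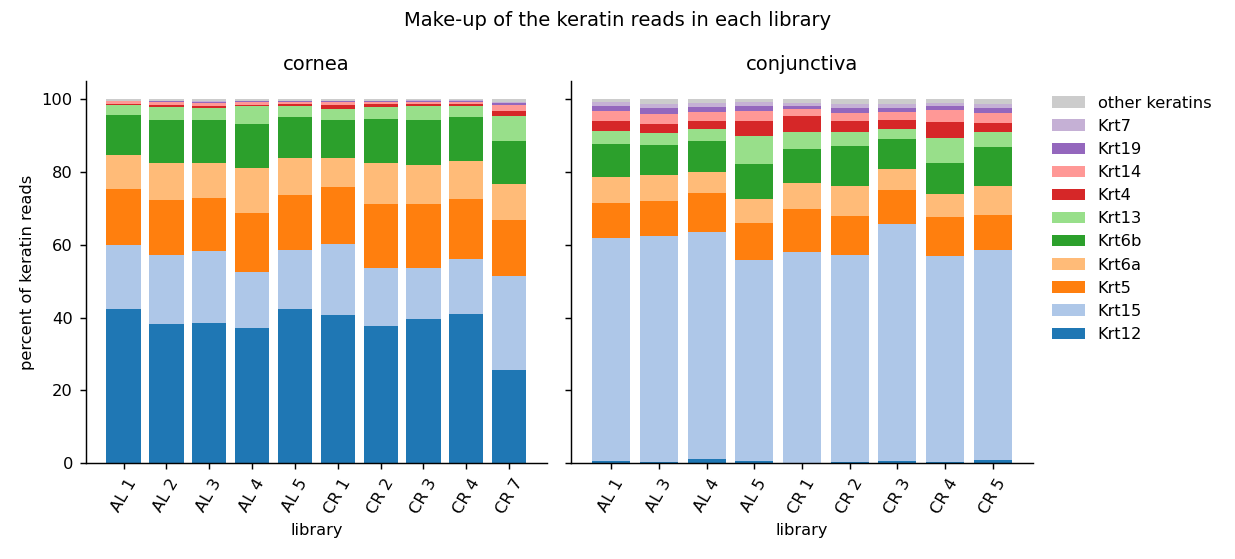
Percent of keratin reads taken by the 10 keratins with the most reads and by all others, with 1 bar for each cornea (left) and conjunctiva (right) library. *Krt12* takes 37.1% to 42.4% in cornea libraries other than CR 7, where it takes 25.5%, and *Krt15* takes over 55% in each conjunctiva library.

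Whether CR acted differently in the tissues was tested for the 22 keratins measured in both, as the conjunctiva change minus the cornea change. None passed (0 of 22 at an adjusted p under 0.05, where 0.0168% of 11929 genes did), and 0 of 22 had an unadjusted p under 0.05 (7.48% of all genes). Limma voom on recovered reads also gave 0, as did a test on differences within the 8 shared titles. The smallest p was that of *Krt19*, with a difference of −0.70 ± 0.34 (SE, 95% interval −1.42 to 0.01, limma adjusted p = 0.675). For *Krt4* the difference was −0.74 ± 0.42 (95% interval −1.60 to 0.13) and for *Krt23* 0.51 ± 0.36 (95% interval −0.23 to 1.26). These intervals hold 0 as well as differences of over 1 log2 unit.

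Pairs of keratins were compared across libraries, on log2 values from which the mean of each diet was taken, for 7 pairs in 2 tissues (14 relations, chosen with the values known and adjusted together). The pairs joined a type I and a type II keratin, except *Krt6a* and *Krt6b*, which are both type II. Centered values were permuted over all libraries of a tissue regardless of diet, so the p-values are approximate. Exact here means only that every order was taken. *Krt4* and *Krt13* varied together in the conjunctiva, with a Pearson r of 0.922 (n = 9, exact permutation p = 9.6e-04, adjusted p = 0.00490) and a Spearman rho of 0.850 (exact permutation p = 0.00607, adjusted p = 0.0425). Without CR 3 and CR 4, farthest from the median of *Krt4*, r was 0.837. In the cornea r was 0.532 and rho 0.515 (n = 10, permutation p = 0.106 and 0.132, adjusted p = 0.211 and 0.236), and r fell to 0.237 without AL 3 and CR 7. *Krt5* and *Krt15* had an r of 0.751 and a rho of 0.783 in the conjunctiva (n = 9, exact permutation p = 0.00767 and 0.0172, adjusted p = 0.0268 and 0.0804), and r was 0.600 without 2 libraries. *Krt6a* and *Krt6b*, which share sequence, had an r of 0.884 in the cornea and 0.968 in the conjunctiva (permutation p = 0.00105 and exact permutation p = 5.5e-04, both adjusted to 0.00490), with a rho of 0.842 and 0.733 (adjusted p = 0.0425 and 0.103, same permutation tests) and an r of 0.740 and 0.723 without 2 libraries.

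*Krt5* and *Krt12*, the corneal pair, had an r of 0.675 and a rho of 0.394 in the cornea (n = 10, permutation p = 0.0396 and 0.262, adjusted p = 0.0925 and 0.408), and r was −0.224 without CR 4 and CR 7, so that the relation rested on those libraries. In the conjunctiva the pair had an r of −0.504 and a rho of −0.683 (n = 9, exact permutation p = 0.166 and 0.0503, adjusted p = 0.249 and 0.117), and r was −0.708 without CR 3 and CR 4. *Krt8* and *Krt18* had an r of −0.309 in the cornea (n = 10, adjusted permutation p = 0.452) and 0.177 in the conjunctiva (n = 9, adjusted exact permutation p = 0.660). Of the 14 relations, 4 passed at an adjusted p under 0.05 for r and 2 for rho. Pairs of other genes were not computed, so these counts have no share of all pairs beside them. Whether such relations are particular to keratins was not tested. In the conjunctiva, CR 3 and AL 4 also had the lowest share of reads from keratins (3.39% and 3.53%, the others 3.95% to 4.55%). The points share library and depth, and the share of features at 0 differed among them.

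**Figure D5:**
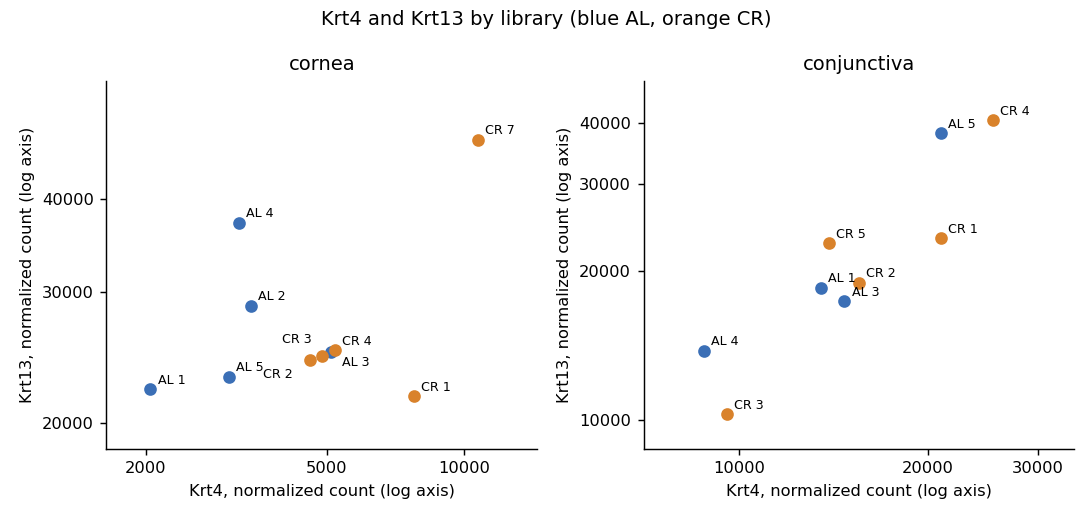
*Krt4* against *Krt13* in each cornea (left) and conjunctiva (right) library, as normalized counts on log axes, AL blue and CR orange. Conjunctiva libraries run along a line from CR 3 and AL 4 to AL 5 and CR 4, while in the cornea CR 7 is far from the others and AL 4 is high in *Krt13* alone.

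Genes that regulate, bind or anchor keratins were set beside the family. Of 28 listed regulators of keratin genes, 27 were tested in the cornea and 1 rose under CR (0.749% of all genes rose). The log2 change was above 0 for 20 of them (46.9% of all genes) and its median was 0.18, and 9 had an unadjusted p under 0.05 (18.1% of all genes). It was *Grhl3*, a transcription factor of epithelial barrier formation and wound closure, with 139, 259, 186, 194 and 153 normalized counts under AL and 373, 402, 414, 592 and 648 under CR. All CR libraries lay above all AL libraries, and the fitted difference was 1.38 ± 0.19 log2 units (SE, limma adjusted p = 8.9e-04). *Trp63*, the p63 gene of basal epithelial cells, passed the adjusted p but not the fold, at 0.49 ± 0.12 (limma adjusted p = 0.0468), and lost it when AL 1, AL 2, AL 3, AL 5, CR 2, CR 3 or CR 7 was left out (up to 0.144). It also lost it with a replicate block (adjusted p = 0.276 by limma), with the share of features at 0 as a covariate (0.179), with no filter (0.0726) and with voom (0.0555). In the conjunctiva 28 were tested and 0 called by limma, with 21 above 0 (48.0% of all genes) and 6 at an unadjusted p under 0.05 (9.40% of all genes). *Grhl3* had 219, 299.6, 212 and 379 there under AL and 357, 292, 192, 253 and 234 under CR, overlapping. Of the genes that bind or anchor keratins, such as desmoplakin and plectin, 19 of 23 were tested in each tissue and 0 called (limma). An unadjusted p under 0.05 was reached by 6 in the cornea (18.1% of all genes) and by 3 in the conjunctiva (9.40% of all genes). Of other intermediate filament genes, 10 of 18 were tested in the cornea and *Lmnb2*, a nuclear lamin, fell (−0.59 ± 0.14, SE, limma adjusted p = 0.0355, where 0.472% of all genes fell), while 13 were tested in the conjunctiva and 0 called, with 1 at an unadjusted p under 0.05 (9.40% of all genes). The call of *Lmnb2* was lost without AL 1, AL 2, AL 3, AL 5, CR 2 or CR 3 (adjusted p up to 0.109), with a replicate block (0.164), with no filter (0.0559) and with the share of features at 0 as a covariate (0.0515).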

How the data were processed

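RNA of scraped corneal epithelium and excised conjunctiva was sequenced as 75-base single reads by the study's methods. The authors trimmed reads with cutadapt, aligned them with STAR to mm10, counted them with HTSeq and normalized them by relative log expression in DESeq2 (versions not given in the sources used here), while the submitters' processing notes name GRCm39. The labels name a stranded mRNA kit and the methods an oligo(dT)-primed kit of another maker, so use of strand and position of reads along transcripts are uncertain. How reads that match several genes were counted is not given in the sources used here.

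The deposited values are log2 normalized counts, 1 table per tissue. They were turned back into normalized counts, and each library's reads were recovered from the value of its smallest step (100% of values whole within 0.03 reads), which gave depths of 10354125 to 14681223 reads in 10 cornea libraries and of 10726717 to 14433441 in 9 conjunctiva libraries. Of 24557 features, 5 repeated a symbol and 24552 were used. Because the unit was log2, the count model that had been planned was replaced by limma 3.58.1 (R 4.3.3, statmod 1.5.0) on log2(normalized count + 1), for features with a mean of at least 10 in the tissue, fitted per tissue on AL and CR libraries. The difference between tissues was that of the changes in the separate fits, over their combined standard error. It treated the tissues as independent, though titles are shared between them. Calls needed a Benjamini-Hochberg adjusted p under 0.05 over all features tested and a fold over 1.5 (for the difference, the adjusted p alone). The steps were tested on simulated data. Correlations used every permutation (n = 9, called exact) or 100000 resamples (n = 10), and all tests were two-sided. The permutations did not keep libraries within their diet, though the mean of each diet had been taken off. Levels across tissues used RPM, recovered reads scaled to 1000000 per library. Python 3.11.15 with numpy 2.4.6, pandas 2.3.3, scipy 1.17.1 and matplotlib 3.10.9 made descriptions and plots.

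Values in every library are given for *Krt12*, *Krt5*, *Krt14*, *Krt4* and *Krt13*, for the 10 keratins with the highest mean in each tissue, for any keratin called and for the 5 with the smallest unadjusted p in each tissue. Genes of other lists were named if called, if a result turned on them, or as the most abundant of a list. The members and the gene lists were chosen with earlier results of these data known. Promoters came from RefSeq (GRCm38.p6), and no genome was used. Alternatives were other pseudocounts (0.5 and 10), no filter or a filter at 50, quantile normalization, TMM scaling, voom on recovered reads, array weights, the share of features at 0 as a covariate, a replicate block, totals without keratins, and leaving out each library in turn.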

Additional observations from a re-analysis of the deposited data

Results flagged for a closer look

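In the groups of 4 and 5 libraries, 81 sets of keratin values were examined for 1 library far from the others (Dixon's ratio of the gap to the range), and 8 were found. Chance gives about 1 in 20 such groups where values are normal and genes are chosen beforehand. The sets here included *Krt16*, *Krt17* and *Krt79*, added after their values were seen, and keratins of 1 library are not independent. The 8 of 81 can therefore not be set against that rate. Cornea CR 7 accounted for 5 of the 8. It had 11069 normalized counts of *Krt14*, where the other CR libraries had 3779.8 to 5623. For *Krt13* it had 48151, against 21686 to 25017, and for *Krt19* 4489.6, against 1586 to 1802. For *Krt7* it had 1844, against 667 to 986, and for *Krt17* 1948, against 459.8 to 647.

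In the conjunctiva, CR 5 had 1262 normalized counts of *Krt79*, where the other CR libraries had 4.76 to 87.7, and CR 4 had 1622 of *Krt16*, where they had 55.0 to 322. Keratins together took 7.23% of the reads of cornea CR 4 (95% Wilson interval 7.22% to 7.25%), against 5.90% to 6.15% in the other CR libraries. *Krt16*, *Krt17* and *Krt79* were named for these values after they were seen. The causes were not tested.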

How the results depend on the processing

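The number of keratins called was 0 in the cornea and 0 for the difference between tissues under every alternative run. In the conjunctiva it was 1 (*Krt18*) with the share of features at 0 as a covariate and 0 under the others. The cause was not tested. Leaving out 1 library at a time gave 0 to 0 calls in each of the 3 comparisons. The change of *Krt4* in the cornea ranged from 0.77 to 1.13 on the log2 scale over these fits (adjusted p from 0.0943 to 0.273), that of *Krt78* from −0.50 to −0.31 (0.0524 to 0.339), and in the conjunctiva that of *Krt23* from 0.57 to 0.90 (0.116 to 0.396) and of *Krt18* from 0.55 to 0.79 (0.125 to 0.455). With array weights *Krt78* had an adjusted p of 0.0348 at a log2 change of −0.47, under the fold needed. Signs changed in 8 of 174 values of named cornea keratins under the other alternatives and in 7 of 160 with a library left out, in 16 of 185 and 13 of 153 in the conjunctiva, and in 15 of 179 and 21 of 285 for the difference, none of them called in either fit. Totals without keratins moved the median log2 change of all conjunctiva genes from −0.02 to −0.11.

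With a replicate block 0 keratins were called in either tissue, and calls over all genes went from 150 to 46 (cornea) and from 50 to 10 (conjunctiva). Array weights gave 705 and 149 calls over all genes, voom 99 and 48, the covariate 62 and 62, and no filter 103 and 44. The numbers gave little sign of a pairing of libraries, though so few libraries cannot settle it. Deviations of AL and CR libraries with the same number had an r of −0.30 to 0.29 (cornea) and −0.06 to 0.05 (conjunctiva), and 1 of 4 cornea numbers and 0 of 4 conjunctiva numbers had their best partner in their own number. Cornea and conjunctiva libraries of the same title had an r of −0.42 to 0.19. Of these titles only CR 2 had its best partner in its own title.

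Keratins under a mean of 10 normalized counts were not tested, and *Krt6a*, *Krt6b*, *Krt8* and *Krt12* share sequence with other genes.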

Other observations

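Melanocyte markers (6 of 6 in the tables) summed to 62.8 to 154 normalized counts in cornea AL libraries, 100.1 to 144 in CR libraries, and to 121 to 195 and 63.2 to 299 in the conjunctiva, and 0 of the 2 and 3 tested were called or had an unadjusted p under 0.05 (limma). Of the markers of meibomian gland, 7 of 10 were tested in the conjunctiva, all 7 with a log2 change above 0 (48.0% of all genes) and 0 called, none at an unadjusted p under 0.05. *Awat1*, *Far2* and *Elovl3* had means of 0, 1.21 and 1.40 normalized counts under AL and 217, 488 and 93.3 under CR. They reached the level for testing only through CR libraries, so their direction was set by that choice. The summed markers were at 9428 in CR 5 and at 464 to 873 in the other CR libraries.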
